A study of Mus musculus with 66 samples.

Results

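Solute carriers, the genes whose symbols start with Slc, were described in mouse gastrocnemius, a calf muscle, before injury and while it regenerated. On the later version of an Affymetrix murine array, called Av2, 154 genes with such a symbol had a probe set assigned to 1 gene, where a probe set is a group of short oligonucleotides for 1 transcript. Each gene was represented by the probe set with the highest mean over the 54 arrays. A gene was kept where at least 2 arrays lay above an intensity of 64.7, the level exceeded by all but 20% of the probe sets on the median array, called the floor here. That left 148 genes, out of 8251 genes with a probe set of 1 symbol on the array. The 6 others, Slc26a2, Slc26a1, Slc4a8, Slc7a1, Slc23a1 and Slc4a5, had at most 1 array above the floor. The last to be kept was Slc25a14, with 2 such arrays, and the nearest to it of those left out were Slc4a8 and Slc23a1, with 1 each. Of the 148 members, 97 lay above the floor on all 54 arrays and 20 on fewer than 27. Slc16a3 and Slc40a1 are not members and were not analysed here.

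The muscle was untreated or had been injected with cardiotoxin, a cobra venom protein that lyses the fibres but leaves the satellite cells, the stem cells that rebuild them. The 27 groups of Av2 were untreated controls and 26 times from 12 h to 40 d after the injection, with 2 arrays in each. A further 12 arrays of an earlier version, called A, held 6 groups of 2, namely controls and muscle at 12 h, 1 d, 2 d, 4 d and 10 d. The labels give an age of 8 weeks for the 4 control arrays and a dose of 100 ul of 10 uM cardiotoxin for the 10 injected arrays of version A. They give no dose for Av2 and no age for injected muscle. The labels used here state neither genotype nor sex, nor if replicate arrays stand for different mice, so the p-values measure only the spread between these arrays, which may be technical. Identical sample codes appear on both versions for control muscle and for 12 h.

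Solute carriers are membrane proteins that move sugars, amino acids, ions, metals, nucleotides and lipids across the plasma membrane and the membranes of organelles. Some work as exchangers, some carry their cargo down its gradient, and some couple it to sodium or protons. In resting muscle the family is best known for insulin-responsive glucose uptake, creatine uptake and the exchange of adenine nucleotides across the inner mitochondrial membrane.

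The promoters of 3 members whose levels were high soon after the injection are shown here, because their letters are used below beside the values of these genes. They are the 250 bases before 1 annotated start of each gene in RefSeq, build GRCm38.p6, 5′ to 3′ on the strand of the gene. The annotated spans of Slc7a11 and Slc3a2 reach further upstream than the stretches shown. Capitals mark matches on either strand to TGATGNAA, the letters of an amino acid response element, or to ACGTG, the core letters of a hypoxia response element. Slc7a11 lies on the minus strand at chr3:50443614-50443863, Slc3a2 on the minus strand at chr19:8713898-8714147 and Slc2a1 on the plus strand at chr4:119108495-119108744.
Slc7a11: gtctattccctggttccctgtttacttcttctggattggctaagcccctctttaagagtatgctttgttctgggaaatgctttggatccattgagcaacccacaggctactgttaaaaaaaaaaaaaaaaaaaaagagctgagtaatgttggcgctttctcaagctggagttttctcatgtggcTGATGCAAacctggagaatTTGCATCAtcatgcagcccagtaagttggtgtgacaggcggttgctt
Slc3a2: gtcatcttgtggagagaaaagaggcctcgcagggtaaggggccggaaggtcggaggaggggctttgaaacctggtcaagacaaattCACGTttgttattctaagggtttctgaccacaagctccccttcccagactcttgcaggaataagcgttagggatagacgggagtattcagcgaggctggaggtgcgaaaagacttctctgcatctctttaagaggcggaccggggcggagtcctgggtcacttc
Slc2a1: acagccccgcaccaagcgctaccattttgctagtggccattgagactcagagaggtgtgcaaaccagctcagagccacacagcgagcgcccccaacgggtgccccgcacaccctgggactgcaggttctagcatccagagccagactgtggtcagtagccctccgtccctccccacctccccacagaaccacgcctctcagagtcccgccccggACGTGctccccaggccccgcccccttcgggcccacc
The Slc7a11 sequence held TGATGNAA at 66 bases and, on the other strand, at 47 bases before the start. Slc3a2 held CACGT, the other strand of ACGTG, at 164 bases, and Slc2a1 held ACGTG at 36 bases before the start. No match overlapped another. Of the members, 121 matched a gene of the promoter table by Entrez ID. TGATGNAA was found in 5 of these 121 (4.13%) and in 3.91% of all 27025 genes of the table, and ACGTG in 34 (28.1%) and 18.5%. CAGCTG, an E-box of myogenic factors, was found in 22 members (18.2%) and in 14.7% of all genes. AAGGTCA, a nuclear receptor site, was found in 5 members and in 4.70% of all genes. The median GC content was 59.6% in the members and 52.4% in all promoters. A match is only a description of these letters.

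Levels are given as the deposited intensities, in arbitrary units, and levels of different probe sets were not compared. Changes are differences of log2 intensity from the 2 control arrays, after values under the floor were raised to it, over 6 windows of time. The windows were 12 h to 2 d with 6 arrays, 3 to 4.5 d with 8, 5 to 7.5 d with 12, 8 to 10 d with 10, 11 to 16 d with 10 and 20 to 40 d with 6. A member is said to have risen or fallen where limma gave an adjusted p under 0.05, with the adjustment over all 11997 probe sets tested. All windows were compared with the same 2 control arrays, so changes in different windows are not independent of each other. In whole muscle, fewer cells of a type and less RNA per cell cannot be told apart.

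On each Av2 array, 76.4% to 83.4% of all probe sets and 79.7% to 91.9% of the members lay above the floor. The ratio of the 3′ to the 5′ control probe set for b-actin was at least 0.233 on all but 7 arrays. It was between 0.018 and 0.078 on those 7, and what so low a ratio says about the RNA was not tested. These 7 were 12 h replicate 2 and both arrays of 1 d, 2 d and 4 d. Without them, the first window consisted of 12 h replicate 1 alone, and 13 members rose and 9 fell there, where 31 rose and 29 fell with all arrays. For many of the members described below the value on that array alone is given beside the early change. It is of 12 h, while the full window also holds 1 d and 2 d, so time and the low ratio cannot be told apart. Counts within substrate groups, cell type markers and partner genes are given with all arrays only. For the lists of markers and partner genes, the shares of all probe sets called in each window are those given below for the members. The 2 arrays of 12 h had the lowest correlation of any group, 0.903.

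Cell type markers moved over the same times. All 8 macrophage markers listed were higher in each of the first 5 windows and 5 of 8 at 20 to 40 d. Their summed intensity was 6715 and 4214 in the controls, between 31486 and 92572 at 12 h to 2 d, between 41212 and 69847 at 3 to 4.5 d and between 7628 and 12031 at 20 to 40 d. The sum of 8 neutrophil markers was 1017 and 1025 in the controls and between 26774 and 103028 at 12 h to 2 d, when 6 of the 8 were higher. Of 8 markers of mature fibres, among them Ckm and Pygm, 4 were lower in each of the first 3 windows and none passed at 20 to 40 d. Their sum was 215027 and 273981 in the controls and between 66090.4 and 150105 at 3 to 4.5 d. Of the other lists at 3 to 4.5 d, 3 of 5 adipocyte and 3 of 3 Schwann cell markers were lower, 3 of 5 fibroblast markers were higher and 1 was lower, 1 of 5 endothelial and 1 of 3 erythroid markers were lower, and none of 4 lymphocyte markers passed. The part of these shifts in cell makeup in the changes of the carriers was not tested.

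Over the whole course, 74 of the 148 members (50.0%) differed between the controls and the later times by limma's F test, against 48.7% of all probe sets tested. At 12 h to 2 d 31 members (20.9%) were higher and 29 (19.6%) lower, against 17.7% and 18.5% of all probe sets. In the next window, 3 to 4.5 d, 33 (22.3%) were higher and 32 (21.6%) lower, against 22.2% and 18.5%. The counts then shrank to 28 higher and 25 lower at 5 to 7.5 d (background 19.0% and 16.1%), 25 and 22 at 8 to 10 d (16.9% and 13.8%), and 20 and 14 at 11 to 16 d (13.9% and 10.2%). At 20 to 40 d 7 members were higher and 2 lower, against 5.01% and 2.12% of all probe sets. The split by direction moved with the scaling. After each array was scaled to a common median, 28 members were higher and 43 lower at 3 to 4.5 d (18.6% and 23.6% of all probe sets), 22 and 33 at 5 to 7.5 d (15.8% and 21.0%), 17 and 31 at 8 to 10 d (13.8% and 19.0%), 16 and 19 at 11 to 16 d (11.9% and 13.6%), and 6 and 3 at 20 to 40 d (3.75% and 3.11%). After quantile normalization 22 were higher and 29 lower at 8 to 10 d (15.4% and 16.3%). The family as a whole changed about as often as the rest of the array, and with the deposited scaling its median log2 change lay between 0.00 and 0.04 in every window, beside 0.00 to 0.03 over all probe sets.

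Of the 148, 81 passed in at least 1 window, against 51.8% of all probe sets tested (6210 of 11997). Among the members 43 were only higher, 37 only lower and Slc25a36 passed in both directions, and over all probe sets 3162 were only higher, 2869 only lower and 179 both. A first call fell at 12 h to 2 d for 60 members, 31 higher and 29 lower, beside 17.7% and 18.5% of all probe sets. It fell at 3 to 4.5 d for 20, at 5 to 7.5 d for 1 and later for none. Slc11a1, Slc12a7, Slc25a10 and Slc48a1 were higher and Slc1a1 and Slc25a25 lower in all 6 windows. Another 14 members passed at 12 h to 2 d alone. Of these, Slc10a6, Slc22a4, Slc25a1, Slc25a28, Slc27a4, Slc35b1, Slc35c2, Slc39a8 and Slc7a11 were higher and Slc22a5, Slc35a1, Slc35a4, Slc35g3 and Slc6a2 lower. The other probe set of Slc25a1, with a mean of 762, did not pass in that window (-0.01). First calls after 2 d, calls in all 6 windows and calls in 1 window alone were not counted over all probe sets.

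**Figure D1:**
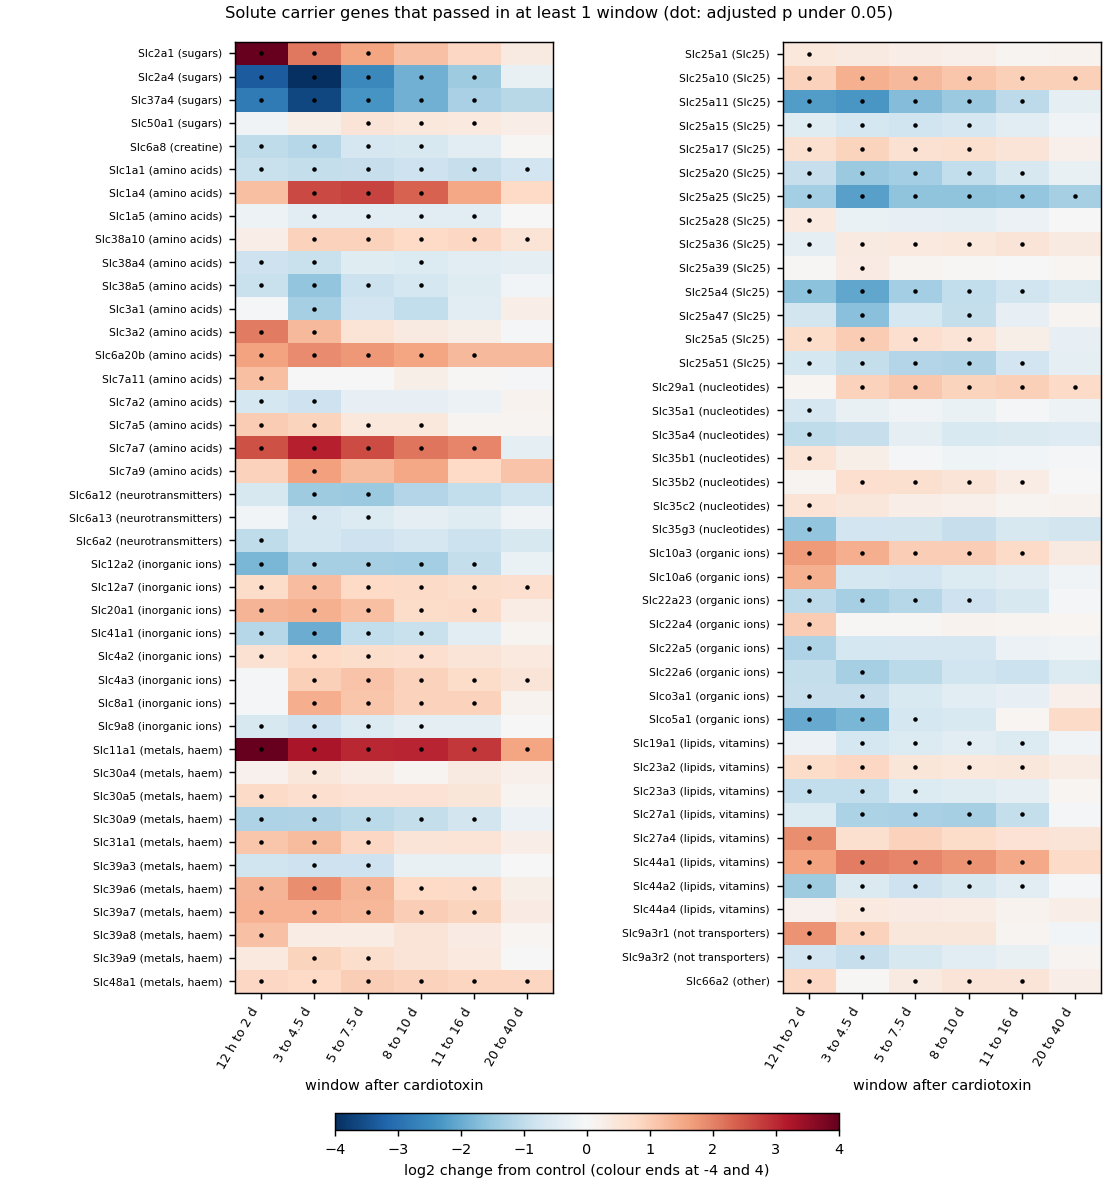
Log2 change from control of the 81 members that passed in at least 1 window (rows, with their substrate group) over the 6 windows (columns), with colour from -4 to 4 and a dot where limma's adjusted p was under 0.05. Slc2a1 and Slc11a1 form the deepest red cells at 12 h to 2 d and Slc2a4 and Slc37a4 the deepest blue cells at 3 to 4.5 d, and 7 higher and 2 lower dots remain at 20 to 40 d.

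Neighbouring windows were also compared with each other, which does not involve the controls. From 12 h to 2 d to 3 to 4.5 d 18 members rose and 31 fell (33.1% of members, against 27.5% of all probe sets), while over all probe sets 2023 rose and 1282 fell. To 5 to 7.5 d 19 rose and 12 fell (20.9%, against 21.1%), where over all probe sets 1099 rose and 1438 fell. Few moved from there to 8 to 10 d (1 rose and 3 fell, 2.70% against 2.44%) or to 11 to 16 d (3 and 2, 3.38% against 6.53%). To 20 to 40 d 18 rose and 13 fell (20.9%, against 19.5%), beside 982 rising and 1360 falling over all probe sets. In these 3 steps the balance of the members was thus opposite to that of all probe sets, a difference that was not tested. Steps were counted with the deposited scaling and all arrays only, and the split by direction against the controls moved with the scaling. In the first step, the earlier window has a low b-actin ratio on every array but 12 h replicate 1. The later window has it at 4 d alone. Time and the low ratio thus cannot be told apart in that step, nor in its values for single members below. By their group means, 25 members were highest at 40 d, 16 at 1 d, 14 at 2 d and 12 at 12 h, and 18 each were lowest at 3 d and in the controls.

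Of 10 sugar carriers, Slc2a4 and Slc37a4 fell through 11 to 16 d, Slc2a1 rose early and Slc50a1 rose later. Slc2a4 encodes the insulin-responsive glucose transporter of muscle and fat. Its intensity was 7501 and 9575 in the controls, 6688 and 1401 at 12 h, 228 and 786 at 1 d, 361 and 583 at 2 d, and 349.5 and 70.0 at 4 d. It was back at 5572 and 5756 at 20 d, 6882 and 6831 at 30 d and 6989.5 and 10302 at 40 d. Every array after the injection lay below both controls except 40 d replicate 2, which lay above them. It was 18.1-fold lower at 3 to 4.5 d (log2 change -4.17 with an SE of 0.43, n = 8, adjusted p = 2.2e-09 by limma), at 5 to 7.5 d 5.93-fold and at 8 to 10 d 3.77-fold lower. The change of -1.41 at 11 to 16 d passed (adjusted p = 0.013) but not without control replicate 1 (-1.59, adjusted p = 0.0613) or control replicate 2 (-1.23, adjusted p = 0.177). At 12 h to 2 d it was 10.1-fold lower, and on 12 h replicate 1 alone the log2 change was -0.34 (adjusted p = 0.615). The other probe set of the gene was dim, with a mean of 97.9, and did not pass in any window. With the mean of both, the change at 8 to 10 d was -0.67 (adjusted p = 0.141) and at 11 to 16 d -0.33 (adjusted p = 0.559). Levels rose by 1.61 on the log2 scale from 3 to 4.5 d to 5 to 7.5 d (adjusted p = 1.5e-05) and by 1.11 from 11 to 16 d to 20 to 40 d (adjusted p = 0.0041).

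Slc37a4, the carrier of glucose 6-phosphate into the endoplasmic reticulum, fell along with it. It read 4779 and 4909 in the controls, and the lowest, median and highest arrays at 3 to 4.5 d were 115, 439 and 617. That was 12.3-fold lower (log2 change -3.63, SE 0.34, adjusted p = 2.6e-10 by limma), after 7.07-fold at 12 h to 2 d. No array of any later time reached the controls. At 20 to 40 d the arrays ran from 1907 to 2919, 2.14-fold lower, at an adjusted p of 0.050 that missed the threshold. On 12 h replicate 1 alone the change was -1.04 (adjusted p = 0.0730). The call at 11 to 16 d, -1.30, was lost without control replicate 2 (-1.28, adjusted p = 0.0575).

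Slc2a1 encodes the glucose transporter that most cell types use for basal uptake. It read 66.4 and 162 in the controls, 1158 and 3261 at 12 h, 3316 and 2789 at 1 d and 2135 and 622 at 2 d, so that all early arrays lay above both controls. It was 18.3-fold higher at 12 h to 2 d (4.19 ± 0.66 SE on the log2 scale, n = 6, adjusted p = 5.5e-06 by limma), and 3.48 on the log2 scale on 12 h replicate 1 alone (adjusted p = 0.0198). At 3 to 4.5 d the arrays ran from 338 to 649, with a change of 2.11 (adjusted p = 0.0082) that was 1.46 without control replicate 1 (adjusted p = 0.219). The change of 1.59 at 5 to 7.5 d had an adjusted p of 0.046, which was above 0.05 in 21 of the fits that left out 1 array. Without control replicate 1 the change was 0.94 (adjusted p = 0.499). At 9 d it read 968 and 746, above the arrays of 8.5 d at 382 and 86.9 and those of 9.5 d at 208 and 93.3. From 12 h to 2 d to 3 to 4.5 d it fell by 2.08 on the log2 scale (adjusted p = 4.0e-04). The ACGTG match of its promoter is the one shown above.

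The ratio of Slc2a4 to Slc2a1 on each array was tested as a value of its own. Its log2 value was 6.82 and 5.88 in the controls, between -3.86 and 2.53 at 12 h to 2 d and between -2.80 and 1.82 at 3 to 4.5 d, without overlap. The change was -7.52 (SE 0.88, adjusted p = 3.4e-08) and -6.28 (SE 0.85, adjusted p = 3.3e-07) in these windows. On 12 h replicate 1 alone the first was -3.82 (adjusted p = 0.0205), an alternative chosen after seeing the data. The change shrank to -4.15, -3.10 and -2.23 and was -0.66 at 20 to 40 d (SE 0.88, adjusted p = 0.78). The ratio was lower than in the controls in each of the first 5 windows, with an adjusted p of 0.049 in the last of these.

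Slc2a3, a high-affinity glucose transporter of neurons, did not pass against the controls in any window. It read 428 and 361 in the controls, 511 and 835 at 12 h and 574 and 649.7 at 9 d, and it fell by 1.42 on the log2 scale from 12 h to 2 d to 3 to 4.5 d (adjusted p = 0.0012). Slc50a1, a sugar carrier of the SWEET family, read 1253 and 992 in the controls and was higher by 0.53, 0.43 and 0.40 on the log2 scale at 5 to 7.5 d, 8 to 10 d and 11 to 16 d. Without control replicate 2 these were 0.37, 0.26 and 0.23, and none of the 3 passed (adjusted p = 0.133, 0.349 and 0.468).

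Among other genes of glucose handling, the list of insulin signalling and glucose transporter traffic held 9 tested genes, 2 of them higher and 4 lower at 3 to 4.5 d. Irs2, an adaptor of the insulin receptor, was lower by 2.12 on the log2 scale, and Akt1, a kinase downstream of it, was higher by 1.24. Of the hexokinases, which trap glucose in the cell, Hk2 was lower by 2.99 and Hk1 higher by 0.94 at the same time. Slc16a1, a lactate and pyruvate transporter, read 133 and 199.6 in the controls and between 11.6 and 166 at 3 to 4.5 d, and did not pass (-0.57, adjusted p = 0.23). Of 6 genes of lactate handling, 1 was higher and 5 lower at 3 to 4.5 d. They included 2 chaperones of these transporters, Emb, higher by 2.74, and Bsg, lower by 1.38.

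**Figure D2:**
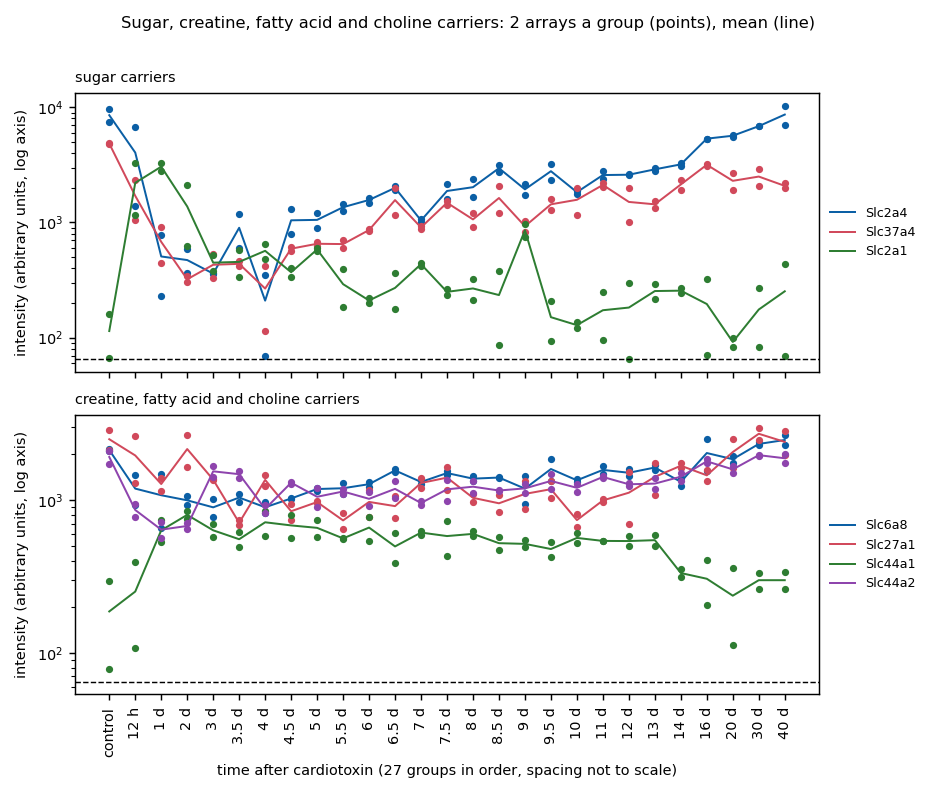
Intensity (log axis, arbitrary units) of sugar and creatine carriers over the 27 groups in order of time, with a point for each of the 2 arrays, a line through their means and the floor as a dashed line. Slc2a4 drops from 7501 and 9575 to 349.5 and 70.0 at 4 d while Slc2a1 peaks at 3316 and 2789 at 1 d, and Slc2a4 is back at 5572 and 5756 at 20 d, with 40 d replicate 2 (10302) as its one point above both controls.

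Slc6a8, which takes up creatine, fell through 8 to 10 d. It read 2091 and 2153 in the controls, between 660.2 and 1488 at 12 h to 2 d and between 769 and 1099.9 at 3 to 4.5 d, when it was 2.22-fold lower (log2 change -1.15, SE 0.20, adjusted p = 1.9e-05 by limma). The early change of -1.02 was -0.55 on 12 h replicate 1 alone (adjusted p = 0.146). The calls at 5 to 7.5 d (-0.68) and 8 to 10 d (-0.64) were lost when control replicate 1 was left out (adjusted p = 0.0522 and 0.0820) and when control replicate 2 was (adjusted p = 0.0724 and 0.114). The other 3 members of its group, the monocarboxylate carriers Slc16a1, Slc16a7 and Slc16a8, did not pass in any window.

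Of 25 carriers of amino acids and peptides, 14 passed in at least 1 window, 8 of them higher and 6 lower, beside the 51.8% of all probe sets. In the 3 to 4.5 d window 7 (28.0%) were higher and 6 (24.0%) lower, against 22.2% and 18.5%. Slc3a2, the heavy chain that brings several amino acid exchangers to the cell surface, rose early. It read 1649 and 2006 in the controls, 4169.6 and 10460.4 at 12 h, 10155 and 9398 at 1 d and 6929 and 7285 at 2 d, with no overlap. It was 4.24-fold higher at 12 h to 2 d (2.08 ± 0.24 SE on the log2 scale, adjusted p = 2.2e-08 by limma; 1.20 on 12 h replicate 1 alone, adjusted p = 0.00698). It was still 2.45-fold higher at 3 to 4.5 d and then did not pass.

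Slc7a5, a light chain that carries large neutral amino acids such as leucine and pairs with Slc3a2, also rose early. It read 1212 and 1073 in the controls and between 1936 and 2945 at 12 h to 2 d, a 2.02-fold rise (log2 change 1.01, SE 0.16, adjusted p = 6.3e-06; 1.12 on 12 h replicate 1 alone, adjusted p = 0.00170). The rise at 3 to 4.5 d was 1.84-fold. The calls at 5 to 7.5 d and 8 to 10 d, 0.43 and 0.42, were lost when control replicate 1 was left out (adjusted p = 0.0646 and 0.0828) or control replicate 2 (0.263 and 0.313), and the later one also when any 1 of 5 arrays of its own window was (adjusted p up to 0.0576). Slc7a11, a light chain that exchanges cystine for glutamate, read 48.0 and 78.1 in the controls, 223 and 194 at 12 h, 262 and 138 at 1 d and 196 and 30.5 at 2 d. It was 2.31-fold higher at 12 h to 2 d (adjusted p = 0.0058), with 1.07 and an adjusted p of 0.0869 without control replicate 1. On 12 h replicate 1 alone the change was 1.65 (adjusted p = 0.00707). It fell by 1.20 to the next window (adjusted p = 1.3e-04). The paired TGATGNAA matches shown above lie in its promoter.

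The list of amino acid response and growth control held 10 tested genes, of which 6 were higher and none lower at 12 h to 2 d, and 2 higher and 1 lower at 3 to 4.5 d. Over all probe sets 17.7% were higher and 18.5% lower at 12 h to 2 d, and 22.2% and 18.5% at 3 to 4.5 d. Atf4, a factor that binds amino acid response elements, was higher by 0.51 on the log2 scale early and lower by 0.51 at 3 to 4.5 d. Asns, which makes asparagine, was higher by 0.72, Trib3 by 1.27 and Ddit3 by 1.08 early. Gclm, a subunit of the enzyme that starts glutathione synthesis from cysteine, was higher by 1.26, and Nfe2l2, which encodes the factor NRF2 of the oxidative stress response, by 0.76.

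Slc7a7, a light chain for basic amino acids, rose and stayed high until 16 d. It read 52.7 and 225 in the controls, 50.2 and 401 at 12 h, 1259 and 1273 at 1 d and 1716 and 1834 at 2 d. All 8 arrays of 3 to 4.5 d lay between 630.3 and 1228, 8.61-fold higher (log2 change 3.11, SE 0.39, adjusted p = 9.4e-08 by limma), and at 11 to 16 d it was still 3.83-fold higher. The early change of 2.56 was -0.90 on 12 h replicate 1 alone (adjusted p = 0.269). Without control replicate 1, which is below the floor, the changes at 8 to 10 d and 11 to 16 d were 1.25 and 1.04 and did not pass (adjusted p = 0.0522 and 0.142). At 20 to 40 d it was back between 48.5 and 142, a fall of 2.31 on the log2 scale from the window before (adjusted p = 5.7e-08).

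Slc1a4, an exchanger of small neutral amino acids, rose later than these. It read 128 and 126 in the controls, 104 and 553 at 12 h and 407 and 100.3 at 2 d, so the early arrays overlapped the controls and the window did not pass (1.19, adjusted p = 0.15). From 3 to 4.5 d on all arrays of 3 windows lay between 432 and 1239. It was 6.20-fold, 6.46-fold and 5.16-fold higher at 3 to 4.5 d, 5 to 7.5 d and 8 to 10 d (adjusted p = 6.9e-04, 4.5e-04 and 0.0024). Slc38a10 rose over the same time and remained higher, with 1440.2 and 1219 in the controls, between 2094 and 2949.9 at 3 to 4.5 d (0.92 ± 0.12 SE on the log2 scale, adjusted p = 9.4e-08) and between 1482 and 2453 at 20 to 40 d (0.56, adjusted p = 0.0028; 0.44 without control replicate 2, adjusted p = 0.133). Its other probe set, with a mean of 59.6, did not pass in any window, and with the mean of both the calls at 8 to 10 d, 11 to 16 d and 20 to 40 d were lost (0.35, 0.38 and 0.43, adjusted p = 0.0899, 0.0726 and 0.114). Slc6a20b read 136 and 65.3 in the controls and was higher by 1.62, 1.89, 1.72, 1.59 and 1.30 in the first 5 windows. None of the 5 passed without control replicate 2 (0.77 to 1.36, adjusted p = 0.0583 to 0.420), and on 12 h replicate 1 alone the first was 1.51 (adjusted p = 0.152).

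Sodium-coupled carriers of glutamine and other neutral amino acids behaved in different ways. Slc38a2 read 1312 and 1722 in the controls, 4158 and 2929.8 at 12 h, 1818 and 3859 at 1 d and 1369.7 and 1141 at 2 d. Its early window did not pass (0.59, adjusted p = 0.075), while it fell by 0.77 on the log2 scale to 3 to 4.5 d (adjusted p = 7.2e-04). Slc38a5 fell from 2121 and 1660.4 to between 474 and 884 at 3 to 4.5 d, 3.01-fold lower (log2 change -1.59, SE 0.22, adjusted p = 4.5e-07), and was between 1179.6 and 3124 at 20 to 40 d. Slc38a4 was 1.86-fold lower at 3 to 4.5 d, with arrays from 675 to 1806 that overlapped its controls of 1834 and 1755. Slc1a5, the main glutamine exchanger of dividing cells, read 852 and 735 in the controls and was lower by 0.46, 0.43, 0.41 and 0.43 from 3 to 4.5 d to 11 to 16 d. Without control replicate 1 these were -0.36, -0.32, -0.31 and -0.32 and did not pass (adjusted p = 0.131 to 0.250). Slc1a1, a glutamate transporter, read 155 and 99.7 in the controls, and none of the 8 arrays at 3 to 4.5 d lay above the floor, so its fall of at least 1.92-fold is a bound. Its call at 20 to 40 d, -0.78, was lost without control replicate 1 (-0.46, adjusted p = 0.200).

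**Figure D3:**
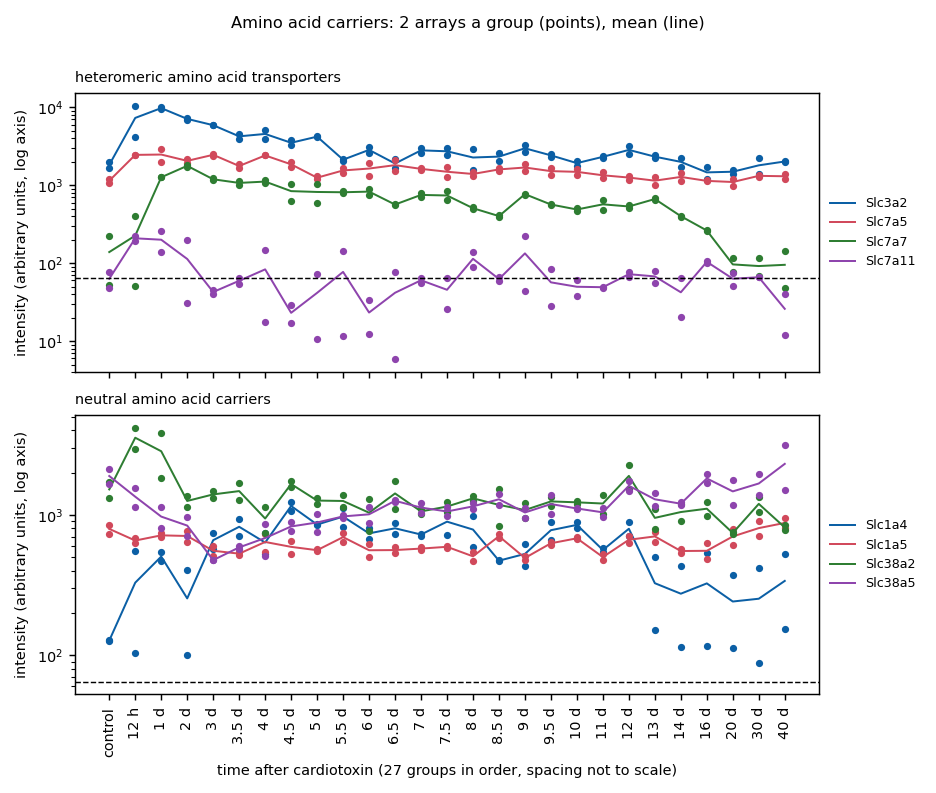
Intensity (log axis, arbitrary units) of amino acid carriers over the 27 groups in order of time, with a point for each of the 2 arrays, a line through their means and the floor as a dashed line. Slc3a2 is highest at 1 d (10155 and 9398), Slc7a7 at 2 d (1716 and 1834) and Slc1a4 after 3 d, and Slc7a11 returns to the floor after 2 d.

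Of 7 carriers of neurotransmitters and osmolytes, 3 fell and none rose in at least 1 window (background 51.8% in either direction). Slc6a12 and Slc6a13, carriers of betaine and GABA, read 254 and 239.7, and 766 and 707, in the controls. Both were lower at 3 to 4.5 d, by 1.43 and 0.66 on the log2 scale (adjusted p = 0.017 and 0.021). Without control replicate 1 the adjusted p was 0.114 for Slc6a12 and 0.158 for Slc6a13, and without control replicate 2 it was 0.0914 and 0.0839. Slc6a2, the noradrenaline transporter, was lower by 1.03 at 12 h to 2 d, which was lost without control replicate 1 (adjusted p = 0.151), control replicate 2 (0.0878) or 12 h replicate 2 (0.0505), and was -0.84 on 12 h replicate 1 alone (adjusted p = 0.316). Its other probe set, with a mean of 191, did not pass in any window (0.09 early, adjusted p = 0.96), and with the mean of both the early change was -0.47 (adjusted p = 0.307). Slc6a6, the taurine transporter, read 3424 and 4204 in the controls and between 2779 and 4713 at 3 to 4.5 d (-0.09, adjusted p = 0.72).

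Among 18 carriers of inorganic ions, 5 rose and 3 fell in at least 1 window, against the same background of 51.8%. Slc12a2, which carries sodium, potassium and chloride into cells, read 3231 and 4104 in the controls, 2839 and 1176 at 12 h, 559 and 612 at 2 d and 2826 and 3559 at 20 d. All arrays from 12 h to 16 d lay below both controls. It was 3.52-fold lower at 12 h to 2 d (-1.82 ± 0.28 SE on the log2 scale, adjusted p = 3.2e-06 by limma; -0.36 on 12 h replicate 1 alone, adjusted p = 0.613) and 2.50-fold lower at 3 to 4.5 d. Its change of -0.95 at 11 to 16 d was -0.78 without control replicate 2 (adjusted p = 0.167). Slc41a1, a magnesium carrier, read 2147 and 1774 in the controls and between 411 and 885 at 3 to 4.5 d, 3.99-fold lower (adjusted p = 9.3e-07). Its early fall of 1.13 was a change of 0.61 on 12 h replicate 1 alone (adjusted p = 0.267). Its calls at 12 h to 2 d, 5 to 7.5 d and 8 to 10 d were lost without control replicate 1 (-0.99, -0.85 and -0.75, adjusted p = 0.0616, 0.107 and 0.185), and the last also without control replicate 2 (-1.03, adjusted p = 0.0584). Slc9a8, a sodium and proton exchanger of the Golgi, was 1825 and 1833 in the controls and between 872 and 1379 at 3 to 4.5 d (-0.84, adjusted p = 2.0e-05).

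Slc20a1, a sodium-coupled phosphate carrier, rose from 297 and 415 to 925 and 1163 at 12 h, 875 and 835 at 2 d and 589 and 718 at 4 d. It was 2.59-fold higher at 12 h to 2 d (adjusted p = 4.8e-06; 1.40 on the log2 scale on 12 h replicate 1 alone, adjusted p = 0.00458) and 2.66-fold at 3 to 4.5 d. At 8 to 10 d and 11 to 16 d the changes were 0.74 and 0.77, and 0.50 and 0.53 without control replicate 1 (adjusted p = 0.223 and 0.225). Slc8a1, the sodium and calcium exchanger, read 261 and 384 in the controls, 248 and 136 at 12 h and 198 and 345 at 1 d, and first lay above both controls at 2 d, with 616 and 607. It was 2.74-fold higher at 3 to 4.5 d (1.45 ± 0.21 SE on the log2 scale, adjusted p = 1.2e-06), a rise of 1.49 from the window before (adjusted p = 1.3e-09). Its calls at 8 to 10 d and 11 to 16 d were lost without control replicate 1 (0.63 and 0.64, adjusted p = 0.106 and 0.122). Its other 2 probe sets, with means of 30.3 and 59.2, did not pass, and with the mean of all 3 the change at 11 to 16 d was 0.24 (adjusted p = 0.150). Slc4a3, an anion exchanger of excitable tissues, had a similar course, with 788 and 839 in the controls, between 650.3 and 971 at 12 h to 2 d, between 1431 and 2494 at 5 to 7.5 d (1.14, adjusted p = 5.7e-08) and between 931 and 1577 at 20 to 40 d (0.53, adjusted p = 0.022). The last call was lost without either control array or without replicate 1 of 20 d or of 40 d, with 0.48 and an adjusted p of 0.202 without control replicate 1. Slc12a7, a potassium and chloride carrier, was higher in all 6 windows, 2.34-fold at 3 to 4.5 d (adjusted p = 2.6e-07) and 1.59-fold at 20 to 40 d (adjusted p = 0.012). Without control replicate 2 its changes at 12 h to 2 d, 11 to 16 d and 20 to 40 d were 0.58, 0.54 and 0.52 and did not pass (adjusted p = 0.0541, 0.0987 and 0.261). Among 5 tested genes of the sodium and potassium pump, 2 were higher and 3 lower at 3 to 4.5 d, led by its modulators Fxyd5, higher by 4.15, and Fxyd1, lower by 2.92.

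Of 16 carriers of metals and haem, 7 (43.8%) were higher and 1 (6.25%) lower at 12 h to 2 d, against 17.7% and 18.5% of all probe sets. At 3 to 4.5 d 8 (50.0%) were higher and 2 (12.5%) lower, against 22.2% and 18.5%. The median log2 changes were 0.45 and 0.38, beside 0.00 over all probe sets. Over the course 9 rose and 2 fell, beside the 51.8% of all probe sets that passed in either direction. Among the 8 higher at 3 to 4.5 d was Slc30a4 (0.45, adjusted p = 0.016). Its other probe set, with a mean of 94.7, was lower there (-0.88, adjusted p = 0.031). No other member had probe sets called in opposite directions. The early calls of Slc31a1, Slc39a6 and Slc48a1 are among those lost on 12 h replicate 1 alone, with values given below. Slc11a1, which moves iron and manganese out of the phagosomes of macrophages and neutrophils, had the lowest adjusted p of all 148 members at 12 h to 2 d. It read 296 and 119 in the controls, 1434 and 3450.4 at 12 h, 7524 and 4277 at 1 d and 4903 and 4737 at 2 d, without overlap. It was 20.9-fold higher in that window (log2 change 4.39, SE 0.28, adjusted p = 2.5e-13 by limma; 2.93 on 12 h replicate 1 alone, adjusted p = 1.5e-06). At 3 to 4.5 d the arrays ran from 1401 to 2372, 9.69-fold higher, and at 11 to 16 d from 609 to 1932, 7.16-fold higher. At 20 to 40 d they ran from 455 to 815, still above both controls (1.57, adjusted p = 5.3e-04), but the change was 0.91 without control replicate 2 (adjusted p = 0.153). The macrophage marker sum given above was also over its controls at these times. The neutrophil marker sum, 1017 and 1025 in the controls, was between 2112 and 7807 at 3 to 4.5 d. At 20 to 40 d it was between 804 and 1466. The part of either cell type in the rise of Slc11a1 was not tested.

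Among zinc carriers, Slc39a7, which releases zinc from the endoplasmic reticulum, read 1303 and 1029 in the controls, 1779 and 2023 at 12 h, 3880.0 and 4031 at 2 d and 3071 and 2911 at 4 d. It was 2.62-fold higher at 12 h to 2 d (1.39 ± 0.13 SE on the log2 scale, adjusted p = 7.2e-10; 0.62 on 12 h replicate 1 alone, adjusted p = 0.0425) and 1.83-fold higher at 11 to 16 d, and overlapped the controls at 20 to 40 d. Slc39a6, a zinc carrier of the plasma membrane, rose from 222 and 132 to between 479 and 792 at 3 to 4.5 d, 3.60-fold higher (adjusted p = 9.9e-07). Its early change of 1.36 was 0.85 on 12 h replicate 1 alone (adjusted p = 0.243), and its calls at 8 to 10 d and 11 to 16 d were lost without control replicate 2 (0.44 and 0.41, adjusted p = 0.454 and 0.533). Slc39a8 passed only early, at 84.9 to 215 against 39.2 and 78.7 (1.16, adjusted p = 0.0046). The change was 1.02 without control replicate 1 (adjusted p = 0.0803) and 1.13 on 12 h replicate 1 alone (adjusted p = 0.151). Slc30a9, a zinc carrier of mitochondria, went the other way. It read 592 and 682 in the controls and between 198 and 340.2 at 3 to 4.5 d, 2.30-fold lower (log2 change -1.20, SE 0.23, adjusted p = 8.4e-05), and stayed lower through 11 to 16 d (-0.74, adjusted p = 0.016), a call that was lost without control replicate 1 (adjusted p = 0.0658) or replicate 2 (adjusted p = 0.199).

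Slc31a1, which takes up copper, was between 1289 and 1857 at 3 to 4.5 d against 639 and 665, 2.42-fold higher (adjusted p = 8.3e-06). Its early change of 1.11 was 0.16 on 12 h replicate 1 alone (adjusted p = 0.872). Slc48a1, a haem carrier of endosomes and lysosomes, read 471 and 798 in the controls and passed in all 6 windows with changes of 0.79 to 0.97. None of these passed without control replicate 1 (0.41 to 0.59, adjusted p = 0.208 to 0.614), the first was -0.34 on 12 h replicate 1 alone (adjusted p = 0.656), and the last, with an adjusted p of 0.048, was above 0.05 in 40 of the fits that left out 1 array. Of 4 tested genes of iron handling, 2 were higher and none lower at 12 h to 2 d. Hmox1, which breaks down haem, was higher by 3.59 and Cp, the plasma ferroxidase, by 2.03.

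**Figure D4:**
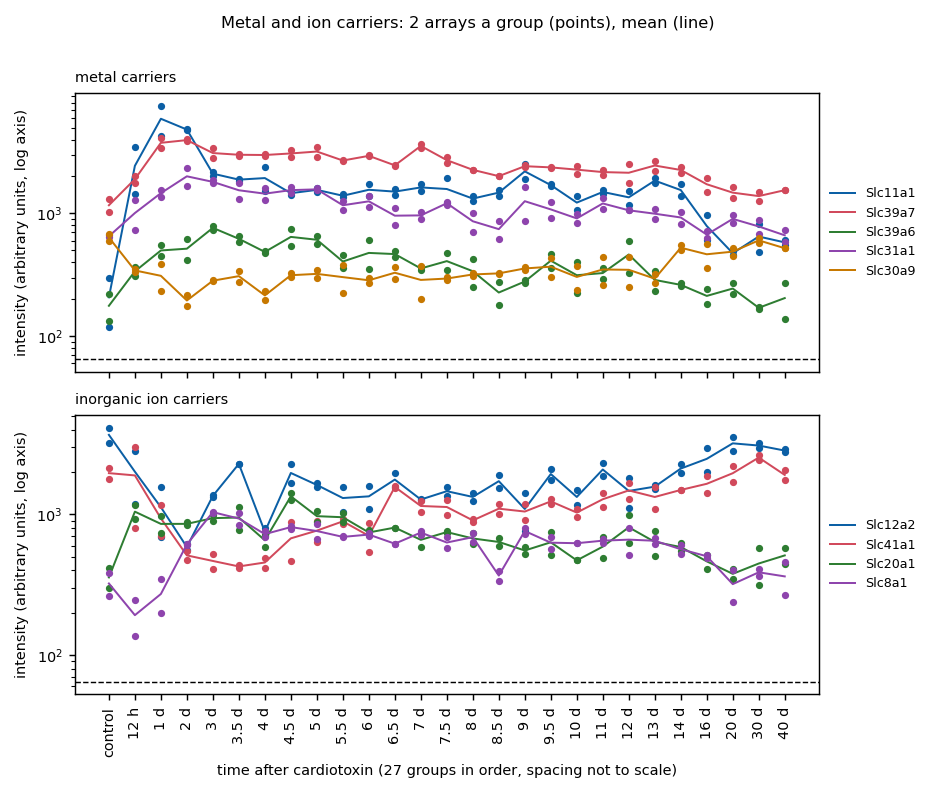
Intensity (log axis, arbitrary units) of metal carriers (top) and inorganic ion carriers (bottom) over the 27 groups in order of time, with a point for each of the 2 arrays, a line through their means and the floor as a dashed line. Slc11a1 peaks at 1 d (7524 and 4277) and Slc39a7 at 2 d (3880.0 and 4031), while Slc12a2 reaches 559 and 612 at 2 d and Slc8a1 rises only from 2 d.

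The mitochondrial Slc25 family held 20 members, of which 13 (65.0%) passed the F test, against 48.7% of all probe sets. At 3 to 4.5 d 5 (25.0%) were higher and 7 (35.0%) lower, against 22.2% and 18.5%. The median log2 change was -0.38, beside 0.00 over all probe sets. Slc25a4 encodes the ADP and ATP exchanger of muscle and heart, and Slc25a5 its counterpart in other and in dividing cells. Slc25a4 read 40997 and 40954 in the controls, 28795 and 15719.6 at 12 h, 9907 and 15574 at 1 d, 8197 and 9037 at 2 d, 11254 and 10048 at 4 d and 32829 and 30092 at 20 d. No array after injection reached the controls. It was 4.22-fold lower at 3 to 4.5 d (-2.08 ± 0.20 SE on the log2 scale, adjusted p = 6.2e-10 by limma), 2.57-fold at 5 to 7.5 d and 1.73-fold at 11 to 16 d. At 20 to 40 d the change was -0.59 and did not pass (adjusted p = 0.084). The early change of -1.64 at 12 h to 2 d was -0.51 on 12 h replicate 1 alone. After quantile normalization the change at 11 to 16 d was -0.18 (adjusted p = 0.527).

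Slc25a5 read 1317 and 1112 in the controls, 1536 and 2586 at 12 h, 2081 and 2078 at 2 d and 2502 and 2062 at 4 d, and was between 825 and 1148 at 20 to 40 d. It was 2.01-fold higher at 3 to 4.5 d (1.01 ± 0.18 SE on the log2 scale, adjusted p = 3.3e-05). The smaller rises at 12 h to 2 d, 5 to 7.5 d and 8 to 10 d (0.73, 0.68 and 0.56) were lost when control replicate 2 was left out (adjusted p = 0.0749, 0.0943 and 0.247), and on 12 h replicate 1 alone the first was 0.34 (adjusted p = 0.508). Its other 2 probe sets, with means of 226 and 316, did not pass, and with the mean of all 3 no window did (0.29 at 3 to 4.5 d, adjusted p = 0.286). The log2 ratio of Slc25a4 to Slc25a5 was 4.96 and 5.20 in the controls and between 1.45 and 2.50 at 3 to 4.5 d. It changed by -2.37 (SE 0.31, adjusted p = 3.2e-07), -3.09 (SE 0.30, adjusted p = 8.2e-10), -2.04, -1.55 and -1.01 in the first 5 windows, and by -0.25 at 20 to 40 d (SE 0.31, adjusted p = 0.76). On 12 h replicate 1 alone the first of these was -0.85 and did not pass (adjusted p = 0.178).

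Slc25a11, the oxoglutarate and malate exchanger of the malate-aspartate shuttle, read 8937 and 8554 in the controls, 5939 and 1456 at 12 h, 1346 and 1787 at 1 d and 1479 and 1355 at 2 d. It was 4.70-fold lower at 12 h to 2 d (adjusted p = 9.1e-08; -0.56 on the log2 scale on 12 h replicate 1 alone, adjusted p = 0.179) and 5.05-fold at 3 to 4.5 d (-2.34 ± 0.27 SE on the log2 scale, adjusted p = 1.5e-08). At 11 to 16 d the change of -1.04 was -1.01 without control replicate 1 (adjusted p = 0.0528). Slc25a20, which brings acylcarnitines in for fat oxidation, fell from 2552 and 2979 to between 866 and 1153 at 3 to 4.5 d, 2.80-fold lower (adjusted p = 8.6e-08). Slc25a51, the carrier of NAD, was 1596 and 1387 in the controls and was lowest by change at 8 to 10 d (-1.19, adjusted p = 2.3e-04), with arrays from 305 to 1007.

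Slc25a25, a calcium-regulated carrier of ATP-magnesium and phosphate, stayed low to the end. It read 2913 and 3989 in the controls, 5466 and 1859.8 at 12 h, 738 and 1249.5 at 1 d, 429 and 662 at 4 d and 1561 and 1517 at 40 d. It was lower at 3 to 4.5 d (-2.17 ± 0.26 SE on the log2 scale, adjusted p = 4.1e-08) and 2.50-fold lower at 20 to 40 d (-1.32, adjusted p = 0.0018), a late change that was -1.10 without control replicate 2 (adjusted p = 0.0922). The early change of -1.35 was 0.68 on 12 h replicate 1 alone (adjusted p = 0.162). Slc25a10, the dicarboxylate carrier, was the counterpart that stayed high, with 271 and 332 in the controls, 885 and 1146 at 2 d, 794 and 829.5 at 4 d and 476 and 766 at 40 d. It was 2.66-fold higher at 3 to 4.5 d (1.41 ± 0.17 SE on the log2 scale, adjusted p = 2.8e-08) and 1.94-fold at 20 to 40 d (adjusted p = 4.9e-04). Its early change of 0.93 on the log2 scale at 12 h to 2 d was 0.60 on 12 h replicate 1 alone.

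Slc25a36, a pyrimidine nucleotide carrier, was the 1 member to pass in both directions, lower by 0.39 at 12 h to 2 d (adjusted p = 0.0075) and higher by 0.37, 0.40, 0.41 and 0.50 in the next 4 windows. The fall was -0.27 without control replicate 2 (adjusted p = 0.211), and none of the 4 rises passed without control replicate 1 (0.25 to 0.38, adjusted p = 0.0783 to 0.225). The step between the first 2 windows was a rise of 0.76 (adjusted p = 2.1e-09). Slc25a47 read 385 and 299 in the controls and was 3.19-fold lower at 3 to 4.5 d (adjusted p = 3.1e-04). Slc25a3, the phosphate carrier, read 557 and 131 in the controls and did not pass in any window. Among 9 tested genes of mitochondrial pores and biogenesis, none was higher and 3 were lower at 3 to 4.5 d. These were Ucp3, an uncoupling protein of muscle, lower by 3.39, Vdac3, a pore of the outer membrane, lower by 1.92, and Esrra, a receptor that drives oxidative genes, lower by 1.60.

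**Figure D5:**
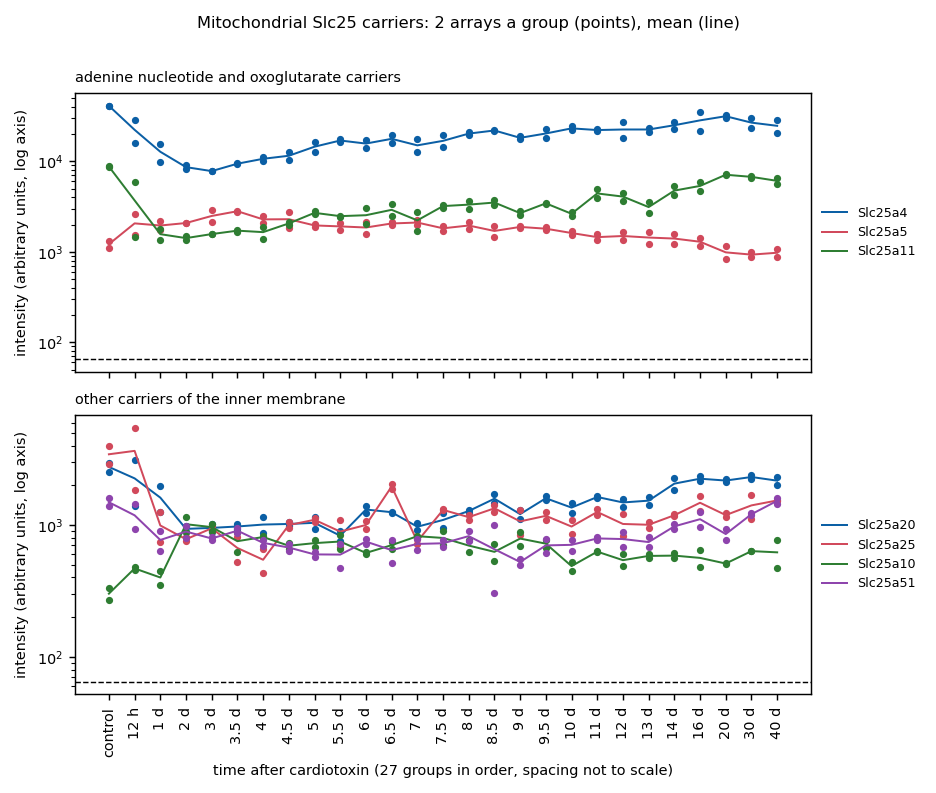
Intensity (log axis, arbitrary units) of Slc25 carriers over the 27 groups in order of time, with a point for each of the 2 arrays, a line through their means and the floor as a dashed line. Slc25a4 falls from 40997 and 40954 to 8197 and 9037 at 2 d and Slc25a11 to 1479 and 1355, while Slc25a5 and Slc25a10 lie above their controls from 12 h to 10 d and Slc25a25 is still low at 1561 and 1517 at 40 d.

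Among 13 carriers of nucleosides and nucleotide sugars, Slc29a1, an equilibrative nucleoside transporter, rose from 1293 and 1516 to between 2574 and 3555 at 5 to 7.5 d, 2.13-fold higher (log2 change 1.09, SE 0.16, adjusted p = 2.2e-06 by limma). The early arrays, between 1111 and 2038, overlapped the controls. It remained 1.69-fold higher at 20 to 40 d (adjusted p = 0.0057), which was lost without control replicate 1 (0.64, adjusted p = 0.136). Its other probe set, with a mean of 275, did not pass in any window, and with the mean of both none of its calls stood (0.33 to 0.64, adjusted p = 0.280 to 0.487). Slc35b2, which supplies the Golgi with the sulfate donor PAPS, was higher by 0.67 at 3 to 4.5 d (adjusted p = 9.2e-06), with arrays from 1401 to 1942 against 1083 and 976. Slc35a1, the Golgi carrier of CMP-sialic acid, was lower by 0.67 at 12 h to 2 d (adjusted p = 0.0024; -0.77 on 12 h replicate 1 alone, adjusted p = 0.0524). Slc35b1 and Slc35c2 were higher at that time alone, and Slc35g3 and Slc35a4 lower. Slc35g3 read 839.6 and 581 in the controls and between 106 and 417 at 12 h to 2 d (-1.57, adjusted p = 0.012), which was -1.31 without control replicate 1 (adjusted p = 0.155) and -2.72 on 12 h replicate 1 alone (adjusted p = 0.0156). Slc35a4 read 156 and 139.9 in the controls and between 13.7 and 109, partly under the floor (-1.02, adjusted p = 0.049), and was lost without control replicate 1 (-0.94, adjusted p = 0.229) or replicate 2 (-1.10, adjusted p = 0.149), and was -0.45 on 12 h replicate 1 alone (adjusted p = 0.789).

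Of 18 carriers of organic ions and bile acids, 3 rose and 5 fell in at least 1 window, beside the 51.8% of all probe sets. Slc10a6, a carrier of sulfated steroids, rose briefly, with 459 and 516 in the controls, 3664 and 2579.5 at 12 h, 964 and 1542 at 1 d, 584 and 631 at 2 d and 425 and 323 at 4 d. It was 2.70-fold higher over 12 h to 2 d (log2 change 1.43, SE 0.34, adjusted p = 0.0010; 2.91 on 12 h replicate 1 alone, adjusted p = 2.8e-04), and without the 12 h arrays 0.82 (adjusted p = 0.0733). It fell by 2.14 to 3 to 4.5 d (adjusted p = 6.2e-09). Slc10a3 read 638 and 322 in the controls and between 709 and 2292 at 12 h to 2 d, 3.26-fold higher (adjusted p = 3.8e-07; 0.64 on the log2 scale on 12 h replicate 1 alone, adjusted p = 0.189). Its rises at 5 to 7.5 d, 8 to 10 d and 11 to 16 d did not pass without control replicate 2 (0.50, 0.50 and 0.28, adjusted p = 0.185, 0.212 and 0.602).

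Slco5a1, an organic anion transporter, read 1041 and 1173 in the controls, 862 and 334 at 12 h, 142 and 261 at 1 d, 172 and 126 at 4 d and 1778 and 2565 at 20 d. It was 4.09-fold lower at 12 h to 2 d (-2.03 ± 0.27 SE on the log2 scale, adjusted p = 3.3e-07; -0.36 on 12 h replicate 1 alone, adjusted p = 0.602) and 3.55-fold at 3 to 4.5 d. Its fall at 5 to 7.5 d, -0.71, was lost without control replicate 1 (-0.79, adjusted p = 0.0971) or replicate 2 (-0.62, adjusted p = 0.220). All 6 arrays of 20 to 40 d, from 1394 to 2565, lay above both controls, yet the change of 0.78 did not pass (adjusted p = 0.075). From 11 to 16 d to 20 to 40 d it rose by 0.71 (adjusted p = 0.0027). Slc22a6, an organic anion transporter of the kidney, read 80.2 and 365 in the controls and between 31.5 and 93.9 at 3 to 4.5 d. Its adjusted p there was 0.047 and was above 0.05 in 32 of the fits that left out 1 array, with a change of -0.23 without control replicate 2 (adjusted p = 0.882).

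Of 13 carriers of fatty acids, choline and vitamins, 4 rose and 4 fell in at least 1 window (background 51.8%). The fatty acid transport proteins moved at different times. Slc27a1, the form of muscle and fat, read 2120.2 and 2877 in the controls and was 2.42-fold, 2.44-fold and 2.53-fold lower from 3 to 4.5 d to 8 to 10 d (adjusted p = 2.1e-04, 1.5e-04 and 1.5e-04), with all arrays of these windows between 646 and 1642. At 11 to 16 d its change of -0.95 was -0.73 without control replicate 2 (adjusted p = 0.192). Slc27a4 read 197 and 178 in the controls, 489 and 1034 at 12 h and 1132 and 554 at 1 d, and was 3.61-fold higher at 12 h to 2 d alone (adjusted p = 9.0e-04; 1.38 on the log2 scale on 12 h replicate 1 alone, adjusted p = 0.0930). Of the choline carriers, Slc44a2 fell to between 562 and 947 at 12 h to 2 d from 1717 and 2105 (log2 change -1.41, SE 0.14, adjusted p = 3.0e-09; -1.01 on 12 h replicate 1 alone, adjusted p = 0.00153). It rose by 0.82 to the next window (adjusted p = 4.2e-08), and its calls at 3 to 4.5 d, 8 to 10 d and 11 to 16 d were lost without control replicate 2 (-0.44, -0.50 and -0.27, adjusted p = 0.0715, 0.0525 and 0.393). Slc44a1 read 294 and 78.8 in the controls and between 491 and 851 at 3 to 4.5 d, 4.18-fold higher (adjusted p = 5.6e-05). Without control replicate 2 none of its 5 calls passed (0.56 to 1.11, adjusted p = 0.0649 to 0.514), and on 12 h replicate 1 alone the early change was -0.49 (adjusted p = 0.708). Slc23a2, a vitamin C carrier, was higher by 0.83 at 3 to 4.5 d (adjusted p = 1.0e-05), and Slc19a1, the reduced folate carrier, lower by 0.69 (adjusted p = 0.0022). The other probe set of Slc19a1, with a mean of 221, had the opposite sign there (0.82, adjusted p = 0.32) and did not pass in any window.

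Slc9a3r1, a scaffold protein that binds ion exchangers and is no transporter itself, read 1069 and 746 in the controls and between 1397 and 4092 at 12 h to 2 d, 3.45-fold higher (adjusted p = 1.2e-06; 0.65 on the log2 scale on 12 h replicate 1 alone, adjusted p = 0.190). Its change of 0.93 at 3 to 4.5 d was 0.67 without control replicate 2 (adjusted p = 0.135). Slc9a3r2, a related scaffold, went the other way, from 547 and 453 to between 140.2 and 402 at 3 to 4.5 d (-0.93, adjusted p = 0.012; -0.79 without control replicate 1, adjusted p = 0.144). Slc66a2 read 1692 and 1289 in the controls and between 1765 and 3512 at 12 h to 2 d (0.82, adjusted p = 2.5e-06; 1.14 on 12 h replicate 1 alone, adjusted p = 4.9e-05). It overlapped the controls at 3 to 4.5 d (0.05, adjusted p = 0.83), and its later calls, 0.36 to 0.51, were lost without control replicate 2 (0.16 to 0.32, adjusted p = 0.180 to 0.531).

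Of the 148 members, 130 had the same probe set on version A, and 71 of these were tested there, against a floor of 646.8. Version A called 26 of the 71 at 12 h to 2 d (15 higher and 11 lower), 27 at 4 d (14 and 13) and 15 at 10 d (5 and 10), beside 47.6%, 46.0% and 26.6% of all 4742 probe sets tested on it. Av2 called 42, 46 and 34 of the same 71 at 12 h to 2 d, 3 to 4.5 d and 8 to 10 d, and the later windows hold more times than the single 4 d and 10 d of A. Calls on both versions numbered 25, 24 and 11, all in the same direction. Members called on Av2 alone included Slc6a8, whose change at 10 d was 0.28 on A against -0.64 at 8 to 10 d on Av2, and Slc4a3, with -0.01 on A at 4 d against 0.96 on Av2 at 3 to 4.5 d. Given the shared codes of control and 12 h muscle, this in part repeats the measurement rather than the injury. Slc2a4 read 8221 and 9381 in the A controls and 148 and 438 at 1 d (log2 change -3.05 at 12 h to 2 d, adjusted p = 0.0031 by limma, and -3.76 at 4 d, adjusted p = 0.0030). Both changes are bounds, since its arrays of 1 d, 2 d and 4 d all lay under the floor. Slc25a4 read 30492 and 30266 in the controls and 10864 and 9498 at 4 d (-1.58, adjusted p = 3.8e-04). Slc25a5, whose rise rested on 1 of 3 probe sets on Av2, rose on A from 1484 and 1222 to 4781 and 5210.2 at 4 d (1.89, adjusted p = 0.0027). These A values are of that same probe set, so they say nothing about the others. Slc3a2 and Slc7a5 rose at 12 h to 2 d by 2.27 and 1.11 (adjusted p = 3.9e-04 and 2.0e-04). For Slc7a5 control replicate 2 (529) lay under the floor. Slc11a1 rose by 2.64 (adjusted p = 0.0015), a bound, since its controls lay under the floor. Slc10a6 rose by 1.03 (adjusted p = 0.0054), with the controls and both 2 d arrays (469 and 526) under the floor, so that this value is set in part by the floor. Slc2a1 read 11.4 and 90.8 in the A controls and 2591 and 1441 at 1 d, but its change of 0.91 over the floor did not pass (adjusted p = 0.086). Slc29a1, with no change on Av2 at 12 h to 2 d that passed (0.07, adjusted p = 0.83), fell there on A from 2308 and 2362 to between 959 and 1383 (-0.98, adjusted p = 0.0026).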

How the data were processed

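Expression was measured on 66 arrays of mouse gastrocnemius, 54 of version Av2 and 12 of version A. The authors deposited 1 table of processed probe set intensities per version, on a linear scale. The software is not given in the sources used here. The 2% trimmed mean of every Av2 array lay within 0.01% of 800.5 and that of every A array within 0.273% of 599.9, and 16.0% of the A values were below 0. Probe sets were named from GEO's platform annotation, with symbols matched to RefSeq by Entrez ID. Of those on Av2, 10833 had 1 symbol, 396 several and 1193 none, and 66 manufacturer's controls were left out.

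The floor was the 20th percentile on the median array for Av2 (64.7), and for A (646.8) came from its values below 0, as their root mean square times 2. Probe sets with at least 2 arrays above it were tested on log2 values raised to the floor, in limma 3.58.1 (R 4.3.3) with 1 mean per group and eBayes. Each window's mean over its groups was compared with the controls, with Benjamini-Hochberg adjustment over all probe sets tested and a threshold of 0.05. All adjusted p-values are limma's. The fit was tested on simulated data. Arrays carry no read depth, and the 2 arrays per group limit the precision.

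The members and gene lists were chosen with earlier results of these data known. Members were named by a fixed list, by the 4 largest rises and 4 largest falls that passed per window, and by up to 4 per substrate group. Slc12a7, Slc16a7, Slc19a1, Slc23a2, Slc25a1, Slc25a20, Slc25a36, Slc25a51, Slc30a4, Slc30a9, Slc35a1, Slc38a4, Slc38a5, Slc38a10, Slc39a8, Slc4a3, Slc6a6 and Slc9a8 fall outside that rule and were chosen after their values were seen. Alternatives covered normalization, floor, filter, variance model, probe set choice, a replicate block, the reference group and leaving out arrays. The fit of 12 h replicate 1 alone, without the arrays of low b-actin ratio, assumes that this array varies like the other groups.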

Additional observations from a re-analysis of the deposited data

How the results depend on the processing

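Of the 268 calls of members in single windows, 128 held when each array was left out in turn and 21 held in every setting tried, while 85 were lost without control replicate 1 and 95 without control replicate 2. Directions changed for 32 calls in some setting. With 30 and 40 d in place of the controls, 26 members were higher and 43 lower at 3 to 4.5 d, 18 and 36 at 5 to 7.5 d, 16 and 30 at 8 to 10 d and 9 and 21 at 11 to 16 d. In the same setting the values for Slc1a1 were 0.05, 0.00, 0.02, 0.10 and 0.03 in the first 5 windows, those for Slc48a1 were -0.17, -0.21, -0.03, -0.07 and -0.15, those for Slc25a10 were -0.11 at 12 h to 2 d and -0.10 at 11 to 16 d, and that for Slc6a20b was -0.18 at 11 to 16 d. The cause was not tested. When a change of at least 2-fold was required by limma's treat, 7 members were higher and 6 lower at 12 h to 2 d, 5 and 7 at 3 to 4.5 d, 2 and 2 at 5 to 7.5 d, 1 and 0 at 8 to 10 d, 1 and 0 at 11 to 16 d, and 0 and 0 at 20 to 40 d, a stricter test by construction. Without the arrays of low b-actin ratio, 13 members were higher and 9 lower at 12 h to 2 d, where 1 array was left, and 5 were lower at 20 to 40 d. On that array, 12 h replicate 1, the early values turned to -0.90 for Slc7a7, 0.61 for Slc41a1, -0.34 for Slc48a1, 0.68 for Slc25a25 and -0.49 for Slc44a1. It is of 12 h, while the full window also holds 1 d and 2 d, so time and the low ratio cannot be told apart. Without 12 h, 4 members were lower at 20 to 40 d.

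Leaving out 1 array at a time gave 73 to 82 members by the F test. Members higher and lower numbered 22 to 32 and 21 to 29 at 12 h to 2 d, 25 to 35 and 25 to 34 at 3 to 4.5 d, 20 to 29 and 17 to 27 at 5 to 7.5 d, 15 to 27 and 13 to 24 at 8 to 10 d, 12 to 26 and 6 to 16 at 11 to 16 d, and 4 to 9 and 1 to 4 at 20 to 40 d. The lowest counts came without control replicate 1 or 2, except that of the F test, which came without 30 d replicate 1. On version A, 19 to 23, 16 to 18 and 4 to 8 members were called at 12 h to 2 d, 4 d and 10 d without 1 control array.

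With the number in the sample code as a replicate block, 74 members passed the F test, and 31 and 29, 32 and 33, 29 and 24, 25 and 20, 20 and 15, and 7 and 2 were higher and lower in the 6 windows. Deviations of arrays with the same number were compared across the 18 groups whose 2 arrays carry different numbers. Of 153 pairs of these groups, 5 had a correlation over 0.1 (median 0.003, from -0.168 to 0.161). In 9 other groups both arrays carry the same number, and if they share a mouse was not tested. Signal limits the rest. The 20 members above the floor on fewer than 27 arrays have bounds rather than levels on most arrays, and the floor of version A left 71 of 130 members to test.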
